A study of Mus musculus with 16 samples.

Results

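The subject is 10 genes of neuropeptides that sensory neurons are known to make or to gain after injury: Calca, Calcb, Tac1, Adcyap1, Nmb, Penk, Gal, Npy, Cartpt and Vip. They were taken by their symbols, and each matched a single gene among the 53379 gene IDs of the data. Their levels were read in ribosome-bound RNA (IP) and total RNA (IN) of dorsal root ganglia of naive mice. These ganglia hold the cell bodies of sensory neurons, with their glia, vessels and connective tissue. Every mouse was Nav1.8Cre/Rosa26fstrap, of C57BL/6J background and 8 to 12 weeks old. Cre was driven by the Scn10a promoter; Scn10a encodes Nav1.8, a sodium channel found mainly in nociceptors. In cells with Cre, ribosomes carry the EGFP-L10a fusion and were pulled down with antibodies against GFP. The 4 groups were female IP, male IP, female IN and male IN, with 4 pools per sex and 3 mice of the same sex in a pool. Each pool gave 1 IP and 1 IN library, so that 16 libraries stood for 24 mice. All groups thus carried both alleles, and no library came from mice without them.

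Neuropeptides are cut from longer precursors, stored in dense-core vesicles and released from the endings of sensory neurons in the skin and the spinal cord. Calca and Calcb encode the precursors of calcitonin gene-related peptide (CGRP), which widens blood vessels and marks peptidergic nociceptors. Tac1 encodes substance P and neurokinin A, and Adcyap1 the pituitary adenylate cyclase-activating peptide PACAP. Nmb encodes neuromedin B, Penk the enkephalins, which act on opioid receptors, Gal galanin, Npy neuropeptide Y, Cartpt the CART peptides and Vip vasoactive intestinal peptide. In rodents, galanin, neuropeptide Y and vasoactive intestinal peptide are known to rise in sensory neurons after nerve injury, which these naive mice had not had.

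Levels are given as scaled TPM, which are the authors' length-normalised TPM divided by a factor per library, so that the typical tested gene lies at the same level in all libraries. TPM keep no read number, so the depth behind a value is unknown. The share of TPM that fell to nuclear coding genes was 45.0% to 79.9% in IP libraries and 9.60% to 13.4% in IN libraries. Without scaling the median gene was higher in IP by a log2 of 1.84, and the changes below are relative to that shift. Scn10a averaged 381 ± 46.8 scaled TPM in IP and 125 ± 12.4 in IN (SD over 8 libraries each). All 10 genes of a nociceptor list rose in IP. All 8 genes of the satellite glia list and all 8 of the fibroblast list fell. The IP library of female pool 2 stood apart. Its satellite glia genes summed to 289 scaled TPM, the highest of the 8 IP libraries, whose median was 155, and its nociceptor genes summed to 1137, the lowest.

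Of the neuropeptide genes, 8 were tested, each with a mean deposited TPM of at least 1 in both fractions, and 2, Npy and Vip, stayed below that filter in both. In IP against IN, 7 of the 8 rose (Calca, Calcb, Tac1, Adcyap1, Nmb, Gal and Cartpt) and 1, Penk, fell, at an adjusted p under 0.05 in limma, fitted with pools as blocks. Among all 16099 genes tested, 79.4% passed, 40.5% higher and 38.9% lower, so that passing was common here. The median log2 change of the 8 genes was 1.26, against 0.02 for all tested genes. For these 8 genes the IP and IN libraries did not overlap, which held for 48.4% of all tested genes, 22.4% with IP higher and 26% with IP lower. In such bulk libraries, fewer cells of a type and less RNA per cell cannot be told apart. Without female pool 2 the log2 changes were 1.55 for Calca, 1.53 for Calcb, 1.61 for Tac1, 2.49 for Nmb and -1.52 for Penk, each farther from 0 than with it.

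**Figure D1:**
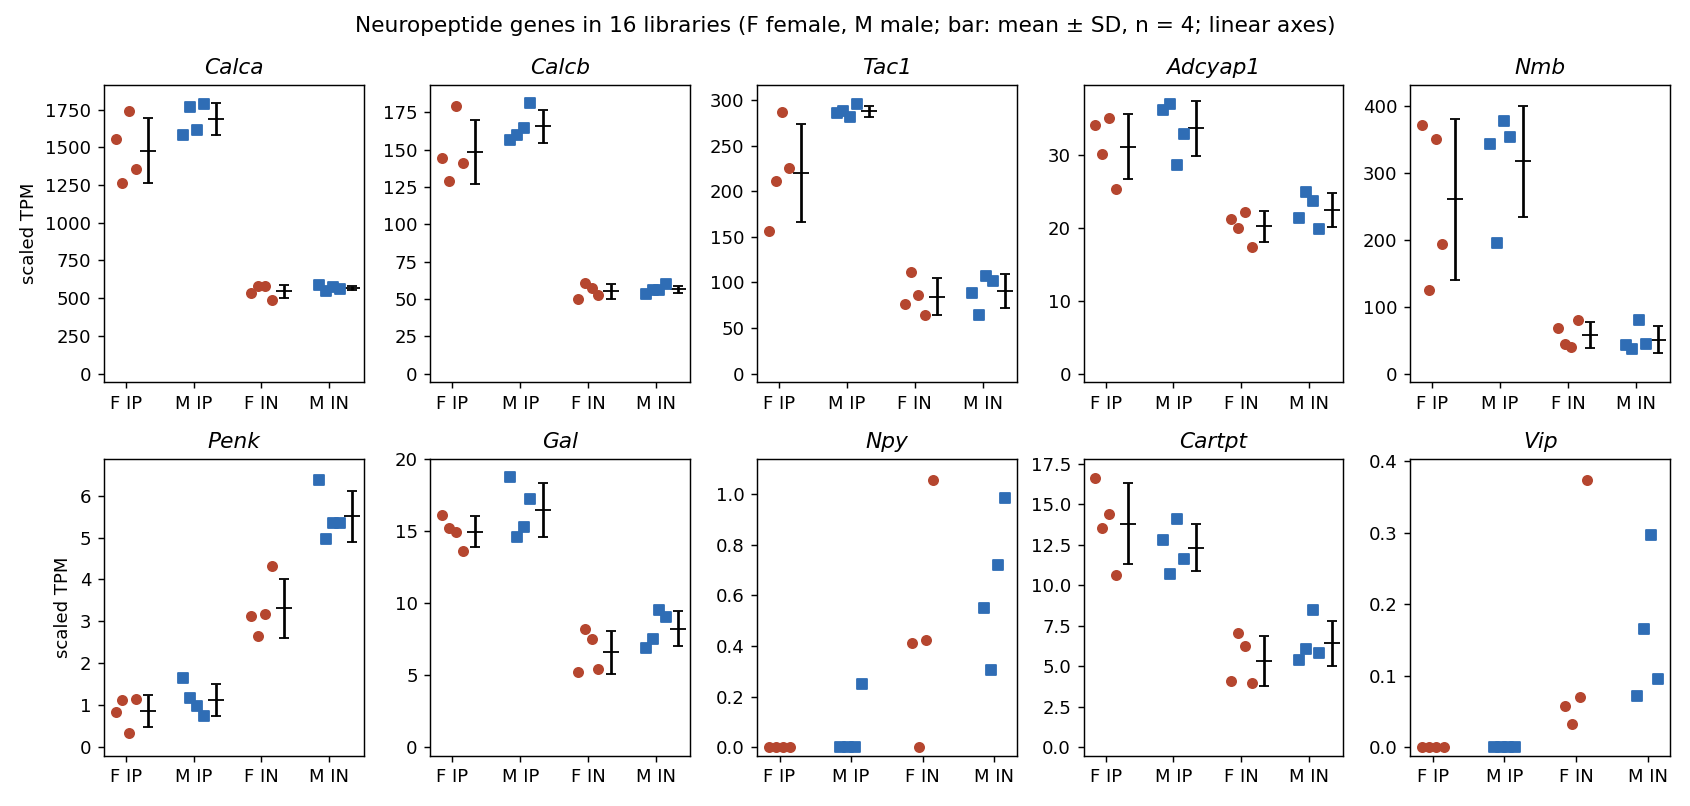
Scaled TPM of the 10 genes (vertical, linear axes that differ between panels) in the 4 libraries each of female IP, male IP, female IN and male IN (horizontal), with the mean and SD beside the points for the 8 tested genes. Calca, Calcb, Tac1, Adcyap1, Nmb, Gal and Cartpt lay higher in every IP library than in any IN library, Penk lay lower, and Vip was at 0 in all 8 IP libraries.

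Calca (ENSMUSG00000030669.13, chromosome 7, 114631478 to 114636357, minus strand, GRCm38) was the most abundant of the genes. Its scaled TPM ranged from 1261 to 1790 with a median of 1598 in the 8 IP libraries. In the 8 IN libraries it ranged from 491 to 585 with a median of 567. By mean level it ranked 2 among nuclear protein-coding genes in IP and 12 in IN. The fold of the means was 2.85 and the log2 change 1.50 ± 0.08 (SE, limma adjusted p = 7.5e-08), with a rise in 8 of 8 pools. The gene also encodes calcitonin by another splice form, and 7 transcripts are annotated in GENCODE M21. A value per gene does not separate them. Quantile normalization in place of the scaling gave a log2 change of 3.16 for Calca.

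Calcb (ENSMUSG00000030666.11, chromosome 7, 114718643 to 114723365, plus strand) lies 82285 bases from Calca. Its level ranged from 129 to 181 scaled TPM in IP, with a median of 158, and from 49.6 to 60.3 in IN, with a median of 56.0. The log2 change was 1.47 ± 0.06 (SE, limma adjusted p = 4.4e-08). Calca stood at 10.1 ± 0.529 times the TPM of Calcb in IP libraries and at 10.01 ± 0.581 times in IN libraries (SD over 8 libraries each). This ratio within a library does not depend on scaling, and it was higher in IP in 5 pools and lower in 3. Both genes code for very similar peptides, and reads from alike stretches may have been assigned to either, so that their split is uncertain.

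Tac1 (ENSMUSG00000061762.12, chromosome 6, 7554879 to 7565834, plus strand) ranged from 157 to 296 scaled TPM in IP, with a median of 284, and from 64.0 to 111 in IN, with a median of 87.0. The log2 change was 1.53 ± 0.13 (SE, limma adjusted p = 1.3e-06). Female pool 2 had the smallest change, 0.92, and male pool 2 the largest, 2.14. Tac1 therefore rose about as much as Calca. Its coefficient of variation over all IP libraries was 19.9%, against 12.1% for Calca. In female IP libraries it was 24.3% against 14.5% for Calca, but in male IP libraries Tac1 was the more even, at 2.09% against 6.26%.

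Nmb (ENSMUSG00000025723.12, chromosome 7, 80902227 to 80905076, minus strand) had the largest rise of the 8 genes and the third largest of all 16099. It averaged 289 ± 100.1 scaled TPM in the IP libraries, against 54.1 ± 18.4 in the IN libraries (SD, n = 8), and the fold of the means was 5.33. The log2 change was 2.36 ± 0.21 (SE, limma adjusted p = 2.2e-06). Female IP libraries 1 to 4 held 372, 125, 350 and 193 scaled TPM and male IP libraries 343, 194, 377 and 353. The IN values were 67.3, 44.4, 39.4 and 79.9 in female and 42.3, 36.1, 79.8 and 43.9 in male pools. The IP libraries were uneven, with female 2 and 4 and male 2 at 125 to 194, yet the lowest of them lay above the highest IN library. The summed satellite glia list was at 130, 289, 141 and 234 scaled TPM in the female IP libraries and at 147, 247, 164 and 126 in the male IP libraries, and at 965 to 1276 in IN. None of its 8 genes was at 0 in all IP libraries, and its part in the Nmb levels was not tested. The nuclear coding share of TPM was 45.0%, 58.0% and 62.9% in IP libraries female 2, female 4 and male 2. The other IP libraries held 68.7% to 79.9%, and a link of this share to Nmb was not tested either. Without female pool 4, whose change was smallest (1.27), the log2 change was 2.52.

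Adcyap1, Gal and Cartpt rose less. Adcyap1 (chromosome 17, 93199422 to 93205485) ranged from 25.3 to 37.0 scaled TPM in IP, with a median of 33.5, and from 17.4 to 25.0 in IN, with a median of 21.3. All 8 IP values were above all IN values, though by a narrow margin, and the log2 change was 0.58 ± 0.05 (SE, limma adjusted p = 3e-06). Gal (chromosome 19, 3409919 to 3414472) ranged from 13.6 to 18.8 in IP, with a median of 15.2, and from 5.22 to 9.52 in IN, with a median of 7.50. Its log2 change was 1.01 ± 0.09 (SE, limma adjusted p = 2.5e-06). Cartpt (chromosome 13, 99898489 to 99901091) ranged from 10.6 to 16.6 in IP, with a median of 13.2, and from 3.95 to 8.46 in IN, with a median of 5.92. Its log2 change was 1.05 ± 0.11 (SE, limma adjusted p = 9.1e-06), and without female pool 1, which had the largest change (1.80), it was 0.94. Gal and Cartpt were thus near each other in level and in change.

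Penk (ENSMUSG00000045573.9, chromosome 4, 4133531 to 4138819, minus strand) went the other way. The scaled TPM were 0.837, 1.13, 0.343 and 1.14 in female IP libraries and 1.64, 1.18, 0.976 and 0.739 in male IP libraries. In IN they were 3.12, 2.65, 3.18 and 4.31 in female and 6.38, 4.96, 5.35 and 5.35 in male pools. The mean was 0.999 ± 0.380 in IP and 4.41 ± 1.32 in IN (SD over 8 libraries each), and the log2 change of -1.42 ± 0.11 (SE, limma adjusted p = 7.2e-07) understates this because 1 is added to low values. With 0.1 added it was -2.07. In female pool 2 the change was nearest to 0, at -0.77. With deposited TPM and no scaling Penk had a log2 change of 0.07 (limma adjusted p = 0.55), where the median gene stood at 1.84, so the fall is relative to that gene. Most listed genes of large-diameter sensory neurons and of the non-neuronal cells in the IN libraries moved the same way. Past the filter in both fractions, 8 of 9 large-diameter neuron genes and 7 of 8 Schwann cell genes fell. So did 5 of 5 macrophage and 7 of 7 vascular genes, where 38.9% of all tested genes fell. That share also covers genes past the filter in a single fraction. The summed large-diameter neuron list ran from 206 to 314 scaled TPM in IP and from 500 to 619 in IN. The summed fibroblast list ran from 91.9 to 276 scaled TPM in IP and from 961 to 1289 in IN, and the summed satellite glia list from 126 to 289 in IP and from 965 to 1276 in IN. None of the 16 fibroblast and satellite glia genes was at 0 in all IP libraries. The part of any of these cells, large-diameter neurons included, in the level of Penk was not tested.

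Npy and Vip were near 0. Npy (chromosome 6, 49822710 to 49829507) was listed at 0 in 7 of 8 IP libraries, with 0.25 scaled TPM in male pool 4. In IN it was at 0.41, 0, 0.423 and 1.05 in female pools 1 to 4 and at 0.551, 0.304, 0.719 and 0.987 in male pools. Vip (chromosome 10, 5639218 to 5647617) was listed at 0 in all 8 IP libraries. In IN it was at 0.057, 0.0326, 0.0698 and 0.373 in female pools and at 0.0715, 0.166, 0.297 and 0.0952 in male pools. The IN libraries of female pool 4 and male pool 4, which had the highest Npy, also had the highest Dbh and Slc6a2, the noradrenaline synthesis and uptake genes of sympathetic neurons. Dbh was at 0.522 and 0.952 there and at 0 to 0.142 in the other 6 IN libraries. Slc6a2 was at 0.741 and 1.50 there and at 0.0635 to 0.486 elsewhere in IN. Below these pools the order of Npy was not that of Dbh and Slc6a2. Male pool 3, with Npy at 0.719, had Dbh at 0.0299. Male pool 2, with Npy at 0.304, had Dbh at 0.142 and Slc6a2 at 0.486. Female pool 1 and male pool 1, with Npy at 0.41 and 0.551, had Dbh at 0. Of the 7 sympathetic genes listed, Hand2 was at 0 in all IP libraries, and the summed level was 5.80 to 7.36 in IP and 2.94 to 6.10 in IN, most of it from Chrna3, which rose in IP by a log2 of 0.83. The part of sympathetic RNA in Npy was not tested.

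**Figure D2:**
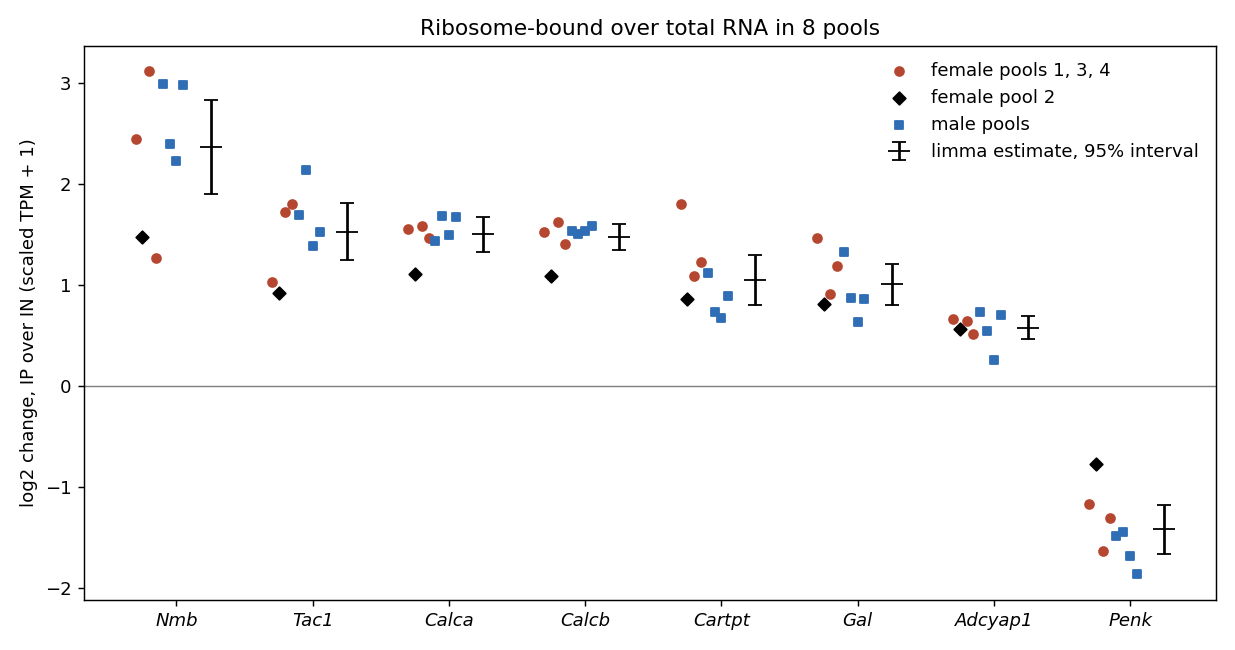
Log2 change of IP over IN (vertical, scaled TPM with 1 added) for the 8 tested genes (horizontal), with a point per pool and the limma estimate with its 95% interval at the right of each set. Every point of the 7 genes at the left is above 0 and every point of Penk below it; female pool 2 had the smallest change of all pools for Calca (1.11), Calcb (1.08), Tac1 (0.92) and Penk (-0.77).

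Promoter sequences are shown for the most abundant gene (Calca), the gene of substance P (Tac1), the gene with the largest rise (Nmb), the gene with a full cAMP element (Cartpt) and a gene listed at 0 in IP (Vip). They are the 250 bases before the RefSeq start site on GRCm38.p6, 5′ to 3′ on the gene's strand. Windows were matched for 8 of the 10 genes, with 9 windows in all because Adcyap1 has a pair, and not for Calcb and Penk. Capitals mark the cAMP element TGACGTCA, its shorter core TGACG or CGTCA, and the TATA box TATAAA or TTTATA, searched on both strands. A full element holds both letter runs of the core. The windows are chr7:114636358-114636607 (minus strand) for Calca, chr6:7554811-7555060 (plus) for Tac1, chr7:80905063-80905312 (minus) for Nmb, chr13:99900684-99900933 (minus) for Cartpt and chr10:5638968-5639217 (plus) for Vip.
Calca: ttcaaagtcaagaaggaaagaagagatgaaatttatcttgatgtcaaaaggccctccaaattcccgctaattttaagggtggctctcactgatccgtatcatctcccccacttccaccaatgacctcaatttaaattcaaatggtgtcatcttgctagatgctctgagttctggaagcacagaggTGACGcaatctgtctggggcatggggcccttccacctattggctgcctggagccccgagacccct
Tac1: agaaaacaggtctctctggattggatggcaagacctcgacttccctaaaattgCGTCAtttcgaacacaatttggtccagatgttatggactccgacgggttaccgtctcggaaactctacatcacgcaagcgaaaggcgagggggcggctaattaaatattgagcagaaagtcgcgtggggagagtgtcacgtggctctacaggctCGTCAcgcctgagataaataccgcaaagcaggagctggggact
Nmb: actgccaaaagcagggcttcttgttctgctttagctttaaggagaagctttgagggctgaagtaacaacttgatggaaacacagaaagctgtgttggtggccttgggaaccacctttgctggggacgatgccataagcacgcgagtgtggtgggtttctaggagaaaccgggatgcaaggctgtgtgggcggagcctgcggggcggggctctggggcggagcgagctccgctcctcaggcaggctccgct
Cartpt: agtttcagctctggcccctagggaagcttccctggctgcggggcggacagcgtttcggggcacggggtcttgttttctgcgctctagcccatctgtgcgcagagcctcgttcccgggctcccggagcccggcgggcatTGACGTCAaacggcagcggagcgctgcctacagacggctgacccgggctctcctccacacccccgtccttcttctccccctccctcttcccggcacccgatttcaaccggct
Vip: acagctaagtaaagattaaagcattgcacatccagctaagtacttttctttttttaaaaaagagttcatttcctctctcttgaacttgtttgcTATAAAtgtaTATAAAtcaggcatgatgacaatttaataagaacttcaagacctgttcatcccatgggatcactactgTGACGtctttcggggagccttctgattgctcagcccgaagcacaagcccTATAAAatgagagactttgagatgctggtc

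The core, counting those inside a full element, stood in the windows of 5 of the 8 genes (Calca, Tac1, Adcyap1, Cartpt and Vip), and in 17.8% of 32851 promoter windows of the same length. The full element stood in 1 of the 8, Cartpt, where it began 112 bases before the start site, and in 1.55% of all windows. TATAAA stood in 2 of the 8, Adcyap1 and Vip, and in 12.4% of all windows. A CCAAT box (CCAAT or ATTGG, not in capitals) stood in 4 of the 8, which were Tac1, Npy, Calca and Adcyap1, and in 33.8% of all windows. The core was thus found both in genes that rose in IP and in Vip, listed at 0 there, while the windows of Nmb and Gal had none of these motifs. The RefSeq start site was that of the deposited files for Calca, Npy and Vip. It lay 14 bases away for Nmb, 72 for Gal, 182 for Tac1, 408 for Cartpt, and 405 and 254 for the Adcyap1 windows.

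The make-up of the peptide total, which no scaling between libraries changes, was compared next. The 10 genes together held 0.788% ± 0.0957 of the TPM of nuclear protein-coding genes in IP and 0.315% ± 0.0193 in IN (SD over 8 libraries each), and these ranges did not overlap. Calca made up 67.7% ± 2.49 of the total of the 10 genes in IP and 70.2% ± 2.33 in IN. Tac1 made up 10.8% ± 1.66 in IP and 10.9% ± 1.73 in IN, and Calcb 6.72% ± 0.343 in IP and 7.02% ± 0.407 in IN. For these 3 genes the ranges of the fractions overlapped. The share of Nmb was 12.1% ± 3.40 in IP and 6.87% ± 2.48 in IN. Its ranges overlapped too, at 7.02% to 16.2% in IP and 4.83% to 11.1% in IN. The share of Adcyap1 was 1.39% ± 0.176 in IP and 2.69% ± 0.308 in IN, with no overlap, and that of Penk 0.0441% ± 0.0187 in IP and 0.557% ± 0.163 in IN.

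**Figure D3:**
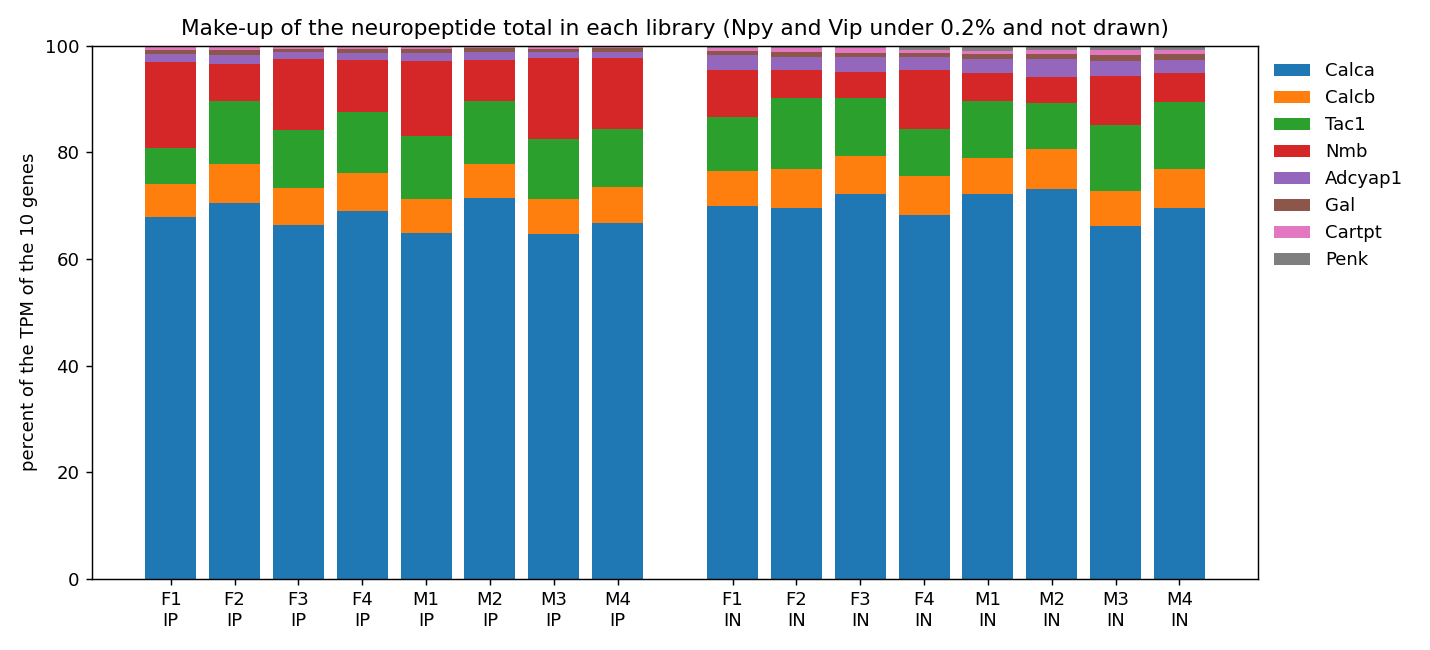
Share of each gene in the summed TPM of the 10 neuropeptide genes (vertical, percent) in each of the 8 IP and 8 IN libraries (horizontal). Calca takes 64.7% to 71.4% of a bar in IP and 66.2% to 73.2% in IN, and the Nmb band is at 7.02% to 16.2% in IP and 4.83% to 11.1% in IN.

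Ratios to Scn10a within a library set each gene against the channel whose promoter drove Cre. For Calca the ratio was 4.18 ± 0.431 in IP and 4.49 ± 0.460 in IN (SD over 8 libraries each), and it was higher in IP in 2 pools and lower in 6. For Tac1 it was 0.673 ± 0.135 in IP and 0.704 ± 0.153 in IN, with 4 pools each way. Nmb was higher relative to Scn10a in 7 of 8 pools, at 0.750 ± 0.237 in IP and 0.444 ± 0.181 in IN. Adcyap1 was lower relative to Scn10a in 8 of 8 pools, at 0.0863 ± 0.0149 in IP and 0.173 ± 0.0305 in IN, a mean log2 difference of -1.005. Gal and Cartpt were lower relative to Scn10a in 7 of 8 pools each, by mean log2 differences of -0.50 and -0.43. Scn10a itself rose by a log2 of 1.60, against 0.02 for the median tested gene. Tac1, at 1.53, already ranked 55 among 16099 genes by its rise. A lower ratio to Scn10a in IP is therefore common among all genes and not particular to these, and its share over all genes was not counted. Adcyap1 thus had a higher level in IP by scaled TPM while its ratio to Scn10a was lower there.

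The genes also differed in how alike their profiles were over the 16 libraries. The measure was the root mean square difference of log2 values after each gene's own mean was taken off, and it also holds the difference between fractions. Calca and Calcb were nearest to each other, at 0.0742, and no other tested gene with a proper symbol (no clone or Gm number) was nearer to either. Next to Calca came Nectin2, an adhesion gene, at 0.0822. Gal and Cartpt were each other's nearest at 0.168, followed by Fkbp1b for Gal (0.168) and Trpv1, the capsaicin receptor gene, for Cartpt (0.211). For Tac1 the nearest were Calcb (0.234) and the water channel gene Aqp1 (0.239), and for Adcyap1 Reep1 (0.0926) and Syngr1 (0.0967). Nmb had no close neighbour, with Dusp26 at 0.482 and Tmem79 at 0.485. Penk was nearest to Nrarp and B3gat1 (0.231 each).

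Female and male pools were compared within each fraction, the contrast that the study's title names. None of the 8 tested genes passed in IP (0 of 8) or in IN (0 of 8) in limma's moderated test, where 0.038% of 15776 genes passed in IP and 0.0824% of 13345 in IN. At an unadjusted p under 0.05 there was 1 of the 8 in each fraction, Tac1 in IP and Penk in IN, and 376 and 653 of all genes. In IP, Tac1 was at 157, 212, 287 and 225 scaled TPM in female pools and at 286, 289, 282 and 296 in male pools. Female pool 3 lay among the male pools, whose SD was 6.01 against 53.5 in females, and the log2 difference was -0.41 with a 95% interval from -0.79 to -0.04 (limma adjusted p = 0.9997). It was -0.27 without female pool 1 and -0.56 without female pool 3. In IN, Tac1 averaged 84.4 ± 20.0 in female and 90.4 ± 19.0 in male pools (SD, n = 4 each).

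In IN, Penk was at 2.65 to 4.31 scaled TPM in the 4 female pools and at 4.96 to 6.38 in the 4 male pools, so the sexes did not overlap. Such a gap with lower female values was seen for 1.57% of the 13345 genes tested. The log2 difference was -0.49 with a 95% interval from -0.70 to -0.27 (limma unadjusted p = 0.00073, adjusted p = 0.41). It ran from -0.56 to -0.43 when a library was left out, with adjusted p from 0.10, without the IN library of female pool 4, to 0.9994. In IP, where Penk was low, the difference was -0.29 with an interval from -0.86 to 0.28, and the sexes overlapped. Of the 8 fibroblast genes 0 passed between the sexes in IN, with a median log2 difference of 0.03, and of the 8 satellite glia genes 0, with a median of -0.04.

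For the other 6 genes the 95% intervals of the sex difference included 0 in both fractions. They were narrowest for Calcb and Calca in IN, from -0.20 to 0.13 and from -0.22 to 0.12 on the log2 scale, and widest for Nmb in IP, from -1.21 to 0.47. The change of IP over IN did not pass as different between the sexes for any of the 8 genes (0 of 8 in limma, 0 at an unadjusted p under 0.05), where 0.0186% of 16099 genes passed and 448 had an unadjusted p under 0.05. The intervals of that difference ran from -0.51 to 0.22 for Calca and from -1.47 to 0.32 for Nmb. A p above the threshold does not show that the sexes were alike.

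**Figure D4:**
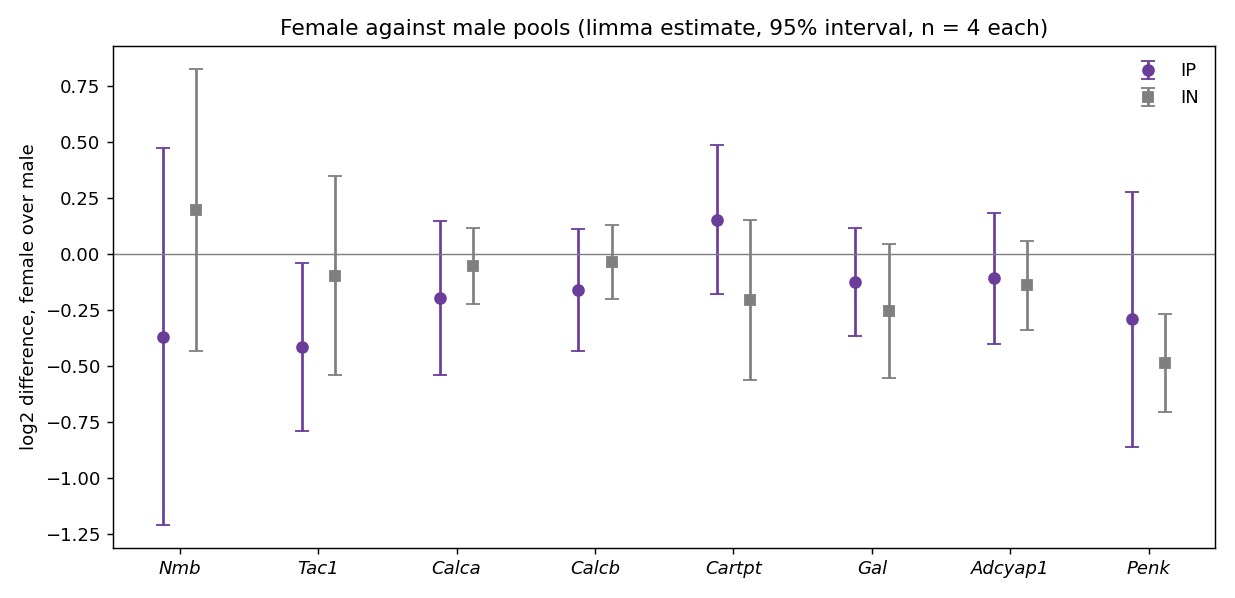
Log2 difference of female over male pools (vertical, limma estimate with 95% interval, n = 4 each) for the 8 tested genes (horizontal) in IP and in IN. Most intervals include 0; those of Tac1 in IP (-0.79 to -0.04) and Penk in IN (-0.70 to -0.27) do not, and neither passed after adjustment over all genes.

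Other parts of the peptide pathway were counted in IP against IN with lists chosen by function. Only genes that passed the filter in both fractions are counted, and each count stands against 40.5% of all tested genes higher and 38.9% lower. Those shares are over a wider set, since a gene was tested if it passed in either fraction, and were not taken over genes passing in both. Of 28 other neuropeptide genes, 3 passed the filter in both fractions and all 3 rose, and Agrp passed it only through IP. Nppb, the natriuretic peptide of itch neurons, was at 20.4 ± 7.12 scaled TPM in IP and 4.28 ± 1.39 in IN (SD over 8 libraries each), and Nts, neurotensin, rose by a log2 of 1.13. Of 9 processing genes 6 rose and 1 fell, with a median of 0.75, against 0.02 for all tested genes. Pcsk1n, a precursor of an inhibitor of the convertase encoded by Pcsk1, rose by 1.80, and the protease gene Ctsl by 1.58. Pcsk1, the convertase gene, fell by 0.45. Qpct, which forms pyroglutamate ends and passed the filter only through IP, had a log2 change of -0.36 that did not hold under quantile normalization (-0.018, limma adjusted p = 0.81). The rises of Pam, the amidating enzyme gene, and of the granin gene Chga did not pass under quantile normalization either (limma adjusted p = 0.33 and 0.058). Of 10 genes of granins and vesicle release 8 rose and 2 fell, with a median of 0.77. The granin genes Scg2 and Scg3 rose by 1.50 and 1.48, while Cadps2, a vesicle priming gene, fell by 1.11 and Chgb by 0.17. Without scaling, Pcsk1, Qpct, Cadps2 and Chgb were not lower in IP, and relative to the median gene Chgb was then higher, by 0.18.

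Of 23 receptor genes 8 passed the filter in both fractions, of which 5 rose and 2 fell (median log2 0.66). Over all 10 tested, with Oprk1 passing only through IP and Adcyap1r1 only through IN, the median was 0.20, and 5 higher and 3 lower are near the shares of all genes. Npy2r, a receptor of neuropeptide Y, was at 15.1 ± 3.12 scaled TPM in IP and 5.68 ± 1.14 in IN, and rose by 1.27. Oprm1, the mu opioid receptor gene on which enkephalins act, rose by 1.10 and Galr1, a galanin receptor gene, by 1.09. Ramp2, a partner of the calcitonin receptor-like receptor, fell by 2.28 on the log2 scale and Calcrl, the gene of that receptor, by 1.36, which without scaling holds for Calcrl relative to the median gene. Calcrl was at 1.16 ± 0.409 in IP and 4.47 ± 0.610 in IN. Crcp, also on the receptor list, went the other way and rose by 0.997. Ramp1 and Ramp3 stayed below the filter in both fractions and were not tested. Adcyap1r1, the PACAP receptor gene, had a log2 change of -1.27. Of 6 peptidase genes that passed the filter in both fractions 1 rose and 3 fell (median -0.85), and Dpp4 passed it only through IN. Ece1, an endothelin-converting enzyme also known to cut CGRP and substance P, rose by 0.43. Mme, the neprilysin gene, fell by 2.33 and Anpep by 1.81.

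**Figure D5:**
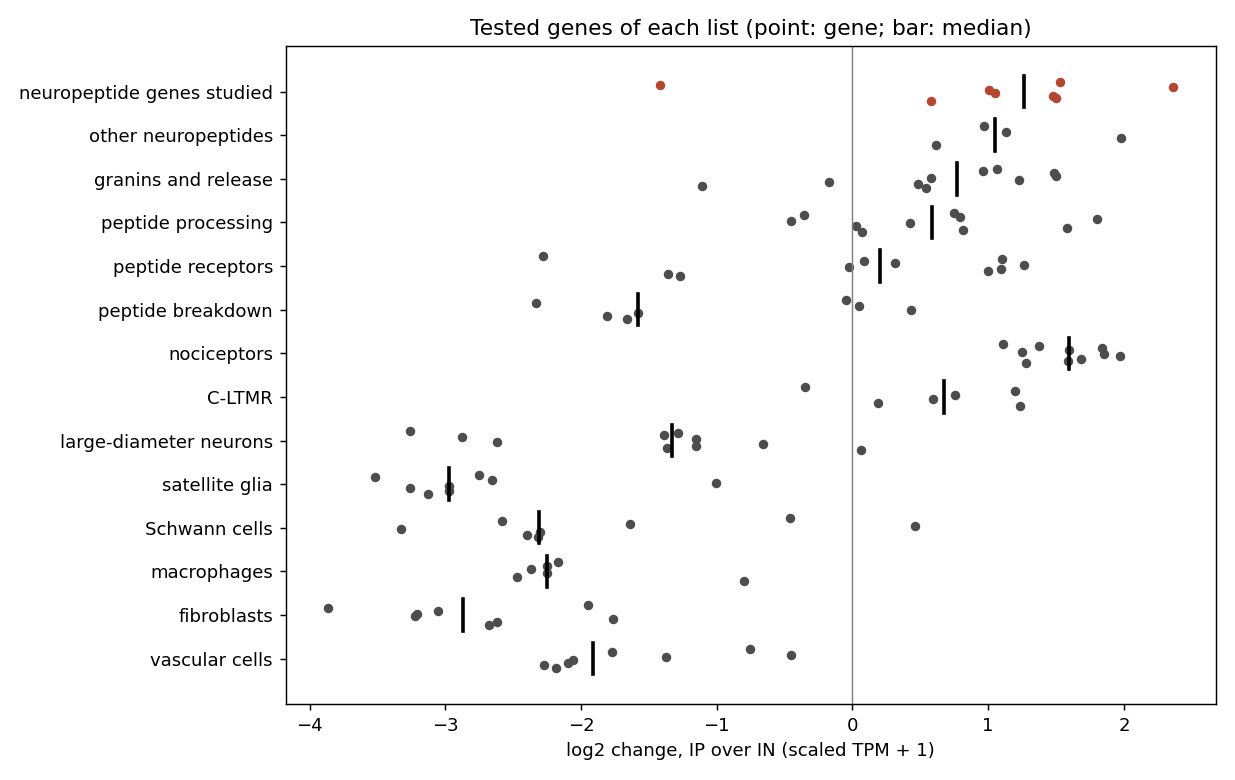
Log2 change of IP over IN (horizontal) for the tested genes of each list (rows), with a bar at the list's median. The neuropeptide genes studied have a median of 1.26, nociceptor genes 1.59 and satellite glia genes -2.97.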

How the data were processed

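RNA-seq was run on 16 libraries of mouse dorsal root ganglia. FastQC, STAR 2.2.1 and StringTie 1.3.5 are named with GRCm38.p5 per the submitters' processing notes. The strand setting and annotation release were not given in the sources used here. Per the labels' protocols, ribosomal RNA was depleted. The values the authors deposited were read as TPM, since they sum to 1000000 in each library with the ERCC entries; they keep no depth. A line in the files names the column Coverage.

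Repeated gene IDs were summed and 92 ERCC entries left out. A gene was tested where its mean TPM reached 1 in either fraction of the libraries compared. TPM were scaled by the median of ratios over tested genes, 1 was added and log2 taken. The tests came from limma 3.58.1 under R 4.3.3 (intensity trend, two-sided, Benjamini-Hochberg over all genes tested, threshold 0.05), and the fits were tested on simulated data. The comparisons were IP against IN (pool as block), female against male in each fraction (no block) and their interaction (pool as block). Python 3.11.15, pandas 2.3.3, numpy 2.4.6 and matplotlib 3.10.9 made tables and plots.

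The pairing of total and pulldown libraries comes from the series design text, which also calls the pools biological replicates. Their deviations from group means correlated across genes at 0.0136 to 0.414 for the female pools and 0.00665 to 0.323 for the male pools.

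The genes studied, the lists and the comparisons were chosen with earlier results of these data known. Named genes were the 10 studied, Scn10a, up to 2 rises and 2 falls per list and 2 nearest profiles per gene. Galr1, Crcp, Ramp1, Ramp3, Adcyap1r1, Oprk1, Dpp4, Pam, Chga, Agrp, Dbh, Slc6a2, Hand2 and Chrna3 were singled out after their values were seen. Of 162 listed symbols 161 matched a single gene, Tafa4 by an older symbol (Fam19a4), and Ece2, with several entries, was left out of the lists. Promoters and gene types came from RefSeq (GRCm38.p6) and GENCODE M21. Alternatives were no scaling, quantile normalization, a pseudocount of 0.1, no filter, the other block setting and leaving out each replicate.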

Additional observations from a re-analysis of the deposited data

Results flagged for a closer look

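In 2 of the 40 groups of 4 libraries (10 genes in 4 groups), a library lay far from the others by Dixon's test, which flags about 1 in 20 groups by chance. Groups at 0 in all 4 libraries (Npy in female IP, Vip in female and male IP) are among the 40 but could not be flagged. Npy was at 0.25 scaled TPM in the IP library of male pool 4 and listed at 0 in the other 3 male IP libraries. With those 3 equal, any value above 0 would be flagged, so the rate of 1 in 20 does not apply to it. Vip was at 0.373 scaled TPM in the IN library of female pool 4 and at 0.0326 to 0.0698 in the other 3 female IN libraries. Both values are near 0.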

How the results depend on the processing

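For IP against IN, 7 neuropeptide genes higher and 1 lower held under quantile normalization, a pseudocount of 0.1, no replicate block and without any 1 pool. With deposited TPM and no scaling 0 were lower, Penk being at 0.069. With no filter on low values 3 were lower, since Npy (log2 -0.53, limma adjusted p = 0.00087) and Vip (-0.18, 0.0082) were then tested, and 21311 genes passed against 12783. Of the genes passing, 51.0% were higher in IP, 94.0% without scaling, 61.1% with quantile normalization and 39.7% with no filter. Calca was at 3.16 with quantile normalization, against 1.50. The median gene moved without scaling by 0.106 between the sexes in IN, -0.114 in IP and -0.21 for the interaction, and was at 0.15 for IP against IN with quantile normalization. Without 1 pool the genes passing numbered 12404 to 12793. No neuropeptide gene passed between the sexes, or for the interaction, under any alternative run.

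For female against male in IN, 11 genes passed, 7 with deposited TPM, 6 with the replicate number as a block and 7 to 12 without 1 library; in IP, 6 passed, 5 with the replicate block and 5 to 12 without 1 library (12 without female replicate 4). The same number in both sexes marks nothing in the labels, and correlations of deviations between such libraries ran from -0.299 to 0.101. For the interaction, 3 passed, 11 with deposited TPM, 1 with quantile normalization, 0 with no filter, 3 with no replicate block and 0 to 6 without 1 pool. The cause of these moves was not tested. Shares and ratios within a library do not depend on scaling. Depth is unknown, so levels near 0 cannot be bounded.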
